A study of Mus musculus with 16 samples.

Results

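The cells described here are CD8 T cells of accepted kidney allografts, 3 weeks after transplantation, that carried transcripts of both Fgl2 and Il2rb. They were chosen by their transcripts alone: a cell entered when it held at least 1 unique molecular identifier (UMI, 1 counted RNA molecule) each of Fgl2, of Il2rb and of Cd8a or Cd8b1. Of the 22206 cells in the 3-week graft CD8 matrix, 21487 had a CD8 UMI and 8061 met the rule, which is 36.3% of the matrix and 37.5% of its CD8 cells. The 9 CD8 matrices together held 72639 cells.

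Fgl2 encodes fibrinogen-like protein 2, which exists as a membrane prothrombinase and as a secreted protein that binds the inhibitory Fc receptor of B cells and dendritic cells, and which regulatory T cells can secrete. Il2rb encodes CD122, the beta chain shared by the receptors for interleukin-2 and interleukin-15. It is carried by memory, natural killer and activated cytotoxic lymphocytes, and CD122-bearing CD8 T cells have been described as a regulatory population.

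Accepted grafts were DBA/2J kidneys placed in wild-type C57BL/6J (B6) recipients, which keep such kidneys without immunosuppression, and the recipients' spleens were taken alongside. Grafts and spleens were collected 1, 3 and 24 weeks after transplantation. The rejecting grafts, taken at 1 week, were B6 kidneys in DBA/2J recipients, although the labels give C57BL/6J as their strain. Naive spleen came from untransplanted C57BL/6J wild-type mice. Viable CD45+ cells were sorted and sequenced with a 3' droplet kit, and the matrices labelled CD8 were used. A library tag in each cell's barcode was read as 1 mouse, which gave 5 libraries for the 3-week graft, 3 for each 1-week and 24-week accepted sample, 5 for 3-week and naive spleen, 2 for the rejecting graft and 3 for its spleen.

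Fgl2 lies at chr5:21372642-21378374 on the plus strand of GRCm38, inside the oppositely oriented gene Ccdc146. Il2rb lies at chr15:78479256-78495271 on the minus strand. The genes of the CD8 coreceptor chains lie together on the plus strand, Cd8b1 at chr6:71322788-71337494 and Cd8a at chr6:71373427-71379173.

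In the 3-week graft the label held against T cell markers. In other matrices many cells lacked a CD8 UMI: one was found in 5262 of 11913 cells of 1-week spleen, 2757 of 5891 of 3-week spleen and 1910 of 4033 of the matrix labelled 24-week graft, and shares below are of cells with a CD8 UMI. All but 1 of the members, 8060 of 8061, had a UMI of Cd3d, Cd3e or Cd3g, and 79.1% had one of Trac, the constant gene of the alpha receptor chain. UMIs of other lineages were found in 12.8% of members for Lyz2, 9.33% for a C1q chain, 1.77% for Cd79a, 0.93% for Cd4 and 0.161% for the natural killer receptor Ncr1. In depth-matched cells, the ranges of these other-lineage shares over the libraries overlapped between members and CD8 cells without Fgl2. In the 3-week graft matrix, 58 barcodes occurred under more than 1 library tag, and 46 members, or 0.571%, carried one.

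Most members sat close to the threshold. Of the 8061, 4203 had exactly 1 Fgl2 UMI, 2132 had 2 and 1726 had at least 3, and the highest count in a cell was 11. For Il2rb, 2967 members had 1 UMI and 5094 had 2 or more. Just inside the threshold stood 1674 members with 1 UMI of each gene, at a median of 2148 UMIs per cell. Just outside stood 1749 CD8 cells with 1 Fgl2 UMI and no Il2rb UMI, with a median of 1990 UMIs, and 3078 with 1 Il2rb UMI and no Fgl2 UMI, with a median of 2015. A further 161 cells had both transcripts and no CD8 UMI. The members' median depth of 2429 UMIs was above the 2072 UMIs of Fgl2-negative CD8 cells. Comparisons of expression between members and reference cells below therefore used cells matched on depth within their library, except where thinned or unmatched cells are named.

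To compare shares, each cell was thinned to 1000 UMIs. At that depth double-positive cells made up 11.2%, 13.7%, 14.7%, 13.6% and 15.4% of CD8 cells in the 5 libraries of the 3-week graft, a mean of 13.7% ± 1.61 (SD, n = 5). The 1-week accepted graft stood at 2.94%, 2.58% and 1.34%, and the rejecting graft at 2.30% and 2.91%. These ranges lay below every 3-week library and overlapped each other. Since the tissue and time were picked with these shares known, they are given as a description with no test.

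Few cells of this kind were found in the spleens. At 1000 UMIs there were 5 among 3730 CD8 cells of 1-week recipient spleen, 1 among 1903 of 3-week recipient spleen and 0 among 3394 of naive spleen, where the 5 libraries singly allow a share of up to 0.350% to 0.545%. These bounds, like the intervals below, cover counting error only. The rejecting spleen had none in 510 CD8 cells, too few for a close bound: the smallest library allows up to 9.09%.

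At 24 weeks the labels ran against this pattern. The matrix labelled recipient spleen held 7.77%, 7.38% and 6.85% double-positive cells, whereas the one labelled graft had 1 such cell in 1284. Its Itga1 level, a tissue-residency gene that the 3-week graft held at 396 to 438 CPM (counts of UMIs scaled to the library's total), was 5.34 to 11.4 CPM, within or near the 6.57 to 10.8 CPM of 3-week spleen. The matrix labelled spleen had 203 to 277 CPM of Itga1. The 24-week matrices are therefore named by their labels only, and no tissue is read from them.

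**Figure D1:**
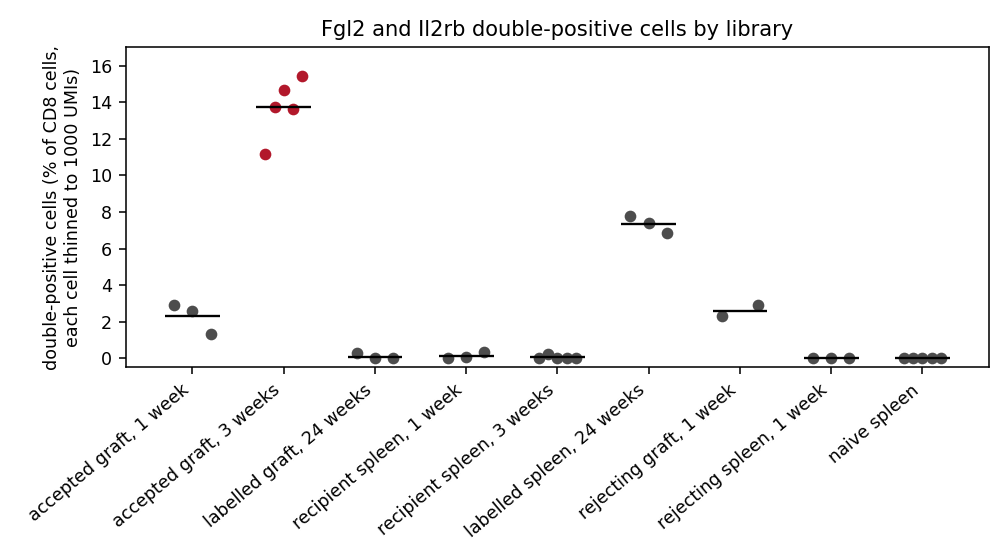
Percentage of CD8 cells with UMIs of both Fgl2 and Il2rb after thinning each cell to 1000 UMIs, with 1 point per library and a bar at the mean. The 5 libraries of the 3-week graft (red) lie between 11.2% and 15.4%, above all others, and the matrix labelled 24-week spleen is next at 6.85% to 7.77%.

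Free RNA was gauged in cells that should lack these genes. Among B cells of naive spleen, at a median depth of 2733 UMIs, 0.169% had an Fgl2 UMI and 0.292% an Il2rb UMI after thinning. Fgl2 is also a macrophage gene: 33.7% of myeloid cells in the rejecting graft had an Fgl2 UMI (95% exact binomial interval 32.3% to 35.1%, median depth 2582 UMIs), against 0.367% for Il2rb. The CD45+ matrices of the accepted grafts were not analysed here, so the level of free Fgl2 RNA in those libraries was not tested. Depth-matched double-positive and Fgl2-negative cells held like levels of myeloid RNA, a summed 485 to 944 CPM over 22 myeloid genes against 494 to 961 CPM, higher in 2 of 5 libraries. B cell markers summed to 297 to 502 CPM against 307 to 484 CPM, and markers of CD4 T cells to 5.79 to 11.5 against 7.02 to 12.8 CPM. Kidney parenchyma genes summed to 11.6 to 15.1 against 7.33 to 15.7 CPM, higher in 4 of 5 libraries.

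Fgl2 and Il2rb were detected almost independently of each other at 3 weeks. Within thinned cells, Il2rb was found in 41.4%, 46.1%, 48.6%, 45.5% and 47.1% of Fgl2-positive CD8 cells and in 39.4%, 43.1%, 46.4%, 43.5% and 47.9% of Fgl2-negative ones. The odds ratio was 1.09, 1.13, 1.09, 1.08 and 0.968 by library. The double-positive share thus stood close to the product of the separate shares, 13.7% observed against 13.1% in library 2, for example. At 1 week the odds ratios were 1.77, 1.5 and 1.15.

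The first comparison asked what else distinguished double-positive cells from CD8 cells of the same graft without an Fgl2 UMI. From each library 1153 to 1492 members were paired with as many Fgl2-negative CD8 cells of like depth, and UMIs were summed by library and class, 3044709 to 3703327 per sum. The rule genes themselves were not tested. Fgl2 stood at 599 to 781 CPM in members and by definition at 0 in the other class, and Il2rb, the other gene of the rule, at 817 to 1049 CPM against 542 to 765 CPM.

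Gzma, Gzmb, Fcer1g and Tyrobp were higher in members, and Klf2, S1pr1, Il7r and Ly6c2 were lower. Of 9644 genes tested with edgeR, 164 were higher in double-positive cells (1.7% of those tested) and 137 were lower (1.42%). TMM scaling turned this split to 123 higher and 202 lower. Ribosomal protein genes made up 49 of the 137 lower genes and 0 of the 164 higher ones, and their share of UMIs was lower in members in 5 of 5 libraries, 24.6% to 26.0% against 25.3% to 26.8%. Without mitochondrial and ribosomal genes 112 genes were higher and 113 lower. All 20 genes with the largest changes that fitted the naming rule kept their direction and their call with it. All 20 except Gzma changed by less than 2-fold.

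**Figure D2:**
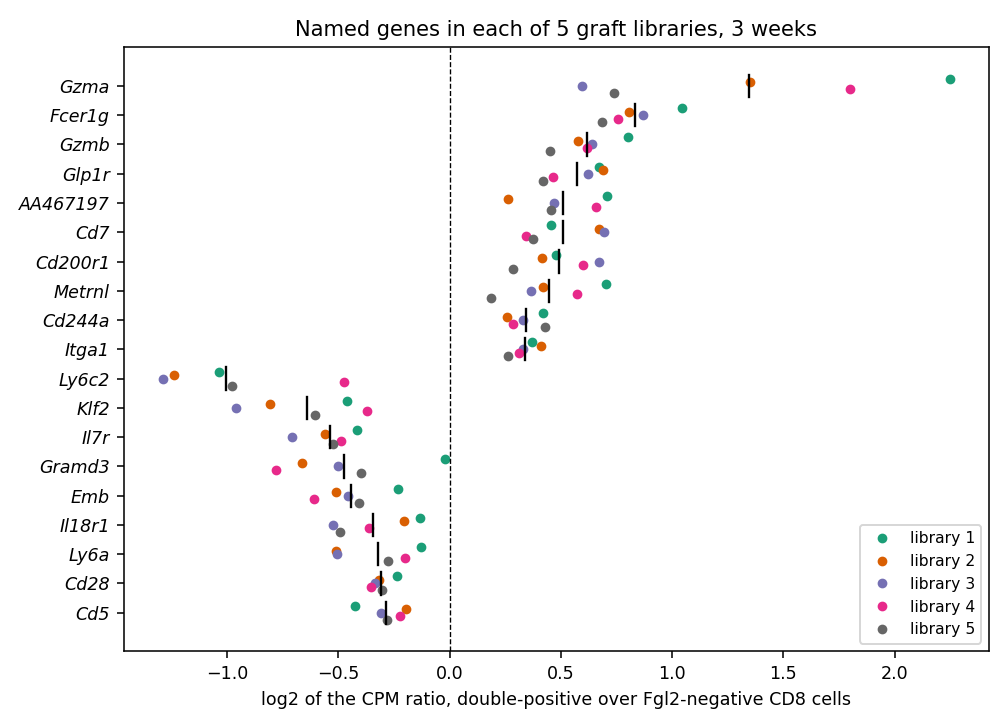
log2 ratio of CPM in double-positive over depth-matched Fgl2-negative CD8 cells for the 10 highest and 9 of the 10 lowest named genes, with 1 point for each of the 5 libraries of the 3-week graft and a bar at their mean. All 5 points of each gene lie on the same side of 0, as the naming rule required, and Gzma has the widest spread.

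Gzmb, encoding the cytotoxic serine protease granzyme B, was measured at 804, 993, 1209, 942 and 990 CPM in double-positive cells and at 462, 666, 777, 614 and 726 CPM in Fgl2-negative cells of the same libraries. The 2 ranges did not overlap. The log2 fold change was 0.61 ± 0.02 (SE), or 1.53-fold (edgeR adjusted p = 8.77e-30).

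Gzma, the gene of granzyme A, had the largest change of the named genes. Its levels were 218, 187, 506, 332 and 288 CPM in members against 46.0, 73.6, 336, 95.6 and 172 CPM, higher in each library, though the ranges overlapped because library 3 was high in both classes. The log2 fold change was 1.14 ± 0.08 (adjusted p = 3.29e-16). This SE comes from the fit and is smaller than the spread of the library ratios. Few cells carried it. After thinning, 4.05% ± 1.34 of members and 2.34% ± 1.2 of Fgl2-negative cells had a Gzma UMI, against 38.6% ± 2.27 and 30.0% ± 3.2 for Gzmb (SD, n = 5). With cells thinned before membership was called, the Gzma change fell to 0.22 on the log2 scale and no longer passed.

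Of 18 cytotoxic and effector genes tested, 3 were higher and 2 lower, with a median log2 change of 0.03, beside 0.02 over all genes. These became 2 and 0 with DESeq2, 1 and 1 with thinning before membership was called, 2 and 2 without library 3 or 4, 4 and 1 without library 5, and 0 and 0 without the block. Ccl5, a chemokine of memory cells, was among the higher ones at 0.08 ± 0.02 (adjusted p = 0.000868), a mean difference that only 3 of 5 libraries shared. Gzmk, a granzyme of less differentiated cells, was lower at -0.67 ± 0.10 (adjusted p = 1.22e-06). Ifng, the gene of interferon gamma, was lower at -0.16 ± 0.04 (adjusted p = 0.00476), in 5 of 5 libraries. Prf1, the perforin gene, stood at 135 against 129 CPM and did not pass (adjusted p = 0.591).

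Fcer1g, the signalling adaptor shared by Fc and natural killer receptors, was higher in every library. It stood at 414, 643, 882, 814 and 632 CPM in members and at 201, 368, 483, 481 and 394 CPM in Fgl2-negative cells, the lowest member library, library 1, falling within the reference range. It was 1.76-fold higher, at a log2 change of 0.82 ± 0.03 (adjusted p = 6.67e-33). Tyrobp, which encodes the related adaptor DAP12, was 1.75-fold higher (adjusted p = 2.11e-11) at a much lower level of 25.4 to 79.7 CPM. Klrb1c, the NK1.1 receptor, was also called, at 4.86 to 8.68 against 1.35 to 6.38 CPM and higher in 4 of 5 libraries (adjusted p = 0.0274). Those 3 were the only ones of 11 natural killer receptor genes tested that were higher, and none was lower. The 3 fell to 2 without library 2 or 3 and with thinning before membership was called, to 1 with DESeq2 or without cells that held a marker UMI of other cell types, and to 0 without the block.

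Of 8 natural killer cell markers 4 were tested, of which Fcer1g, Tyrobp and Klrb1c were higher and Eomes was lower. The other 4, Ncr1, Klra4, Klra8 and Klra9, averaged 0.357 to 0.846 CPM in members and 0.339 to 1.02 CPM in the reference. The summed level of the 8 was 461 to 979 CPM in members and 266 to 536 CPM in the reference, higher in 5 of 5 libraries. Fcer1g alone made up most of this sum in both classes. With cells limited to those with a CD3 UMI and no UMI of Ncr1, Klra4, Klra8 or Klra9, chosen after seeing the data, 317 genes were called and Fcer1g stood at 0.79. This removed few cells, leaving 1142 to 1486 matched members per library instead of 1153 to 1492, so the part of free natural killer cell RNA was not tested.

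Of 13 tissue residency genes tested, 6 were higher in double-positive cells and 1 was lower, with a median log2 change of 0.11. The 6 fell to 3 with DESeq2 or with thinning before membership was called, and to 1 without the block or without cells that held a marker UMI of other cell types. Itga1, encoding the collagen-binding integrin CD49a, was 470, 450, 485, 418 and 426 CPM against 364, 339, 387, 336 and 355 CPM, with no overlap of the ranges, and a log2 change of 0.34 ± 0.03 (adjusted p = 9.17e-15). Itgae, the CD103 integrin gene, was 1.13-fold higher (adjusted p = 0.000934), and Cxcr6, a chemokine receptor of resident cells, was 1.12-fold higher (adjusted p = 6.56e-08). The lower one was Rgs2, a regulator of G protein signalling. Without cells that held any marker UMI of other cell types, the Itga1 change was 0.14 and did not pass, and it was 0.27 and passed when only cells with a defining marker UMI were dropped. After thinning, 45.7% ± 2.48 of members and 39.0% ± 1.97 of Fgl2-negative cells had a UMI of Itgae or Itga1 (SD, n = 5).

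Of 11 genes of circulation and lymph node egress tested, 6 were lower and none was higher, with a median of -0.25. The 6 fell to 3 with thinning before membership was called, and to 2 with DESeq2, without the block or without cells that held a marker UMI of other cell types. Klf2, the transcription factor that maintains egress receptors, was 63.5, 49.6, 38.5, 54.3 and 45.2 CPM in members and 87.3, 86.7, 74.9, 70.2 and 68.7 CPM in the reference, without overlap, a log2 change of -0.62 ± 0.07 (adjusted p = 4.29e-10). S1pr1, the receptor that draws T cells out of tissue, was lower by the widest margin of any called gene, at 2.12 to 5.67 CPM against 7.24 to 15.8 CPM (log2 change -1.60 ± 0.20, adjusted p = 9.91e-09). The integrin genes Itga4 and Itgb1 were also lower, at -0.21 ± 0.02 and -0.25 ± 0.02 (adjusted p = 3.5e-11 and 4.5e-12). Klf3 and Cx3cr1 were the remaining called genes.

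Of 14 effector, memory and stem-like factors 6 were lower and 1 was higher, with a median of -0.33. The 6 fell to 3 with thinning before membership was called, 2 with DESeq2, 1 without cells that held a marker UMI of other cell types and 0 in the edgeR fit without the block, where 470 of all genes had an unadjusted p under 0.05. Il7r, the receptor for the survival cytokine interleukin-7, was 265, 176, 143, 131 and 134 CPM in members and 354, 260, 234, 184 and 193 CPM in Fgl2-negative cells, lower in every library at -0.53 ± 0.04 (adjusted p = 2.45e-16). Eomes, a memory and effector transcription factor, was at 6.36 to 14.3 CPM against 9.70 to 44.9 CPM (log2 change -1.14 ± 0.15, adjusted p = 6.56e-08). Id3, Tcf7 and Slamf6, which mark stem-like cells, and Cd28, the costimulatory receptor, were the others, while Id2, an inhibitor of E proteins in effector cells, was 1.06-fold higher (adjusted p = 0.0108). The Id2 call was lost with TMM scaling, DESeq2 or thinning before membership was called, and without the block. It was also lost without library 4 or 5, without mitochondrial and ribosomal genes, and without cells that held a marker UMI of other cell types.

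Inhibitory receptors split between genes that were higher and genes that did not pass. Of 12 tested, 5 were higher and none lower, with a median of 0.05: Cd244a, Cd200r1, Entpd1, Lilrb4a and Pdcd1. Cd244a, the SLAM-family receptor 2B4, was 1.27-fold higher, at 159 to 181 CPM against 125 to 146 CPM (adjusted p = 9.91e-09). Cd200r1, the receptor for the inhibitory ligand CD200, was 1.40-fold higher without overlap, at 61.4 to 76.2 against 40.3 to 55.1 CPM (adjusted p = 4.31e-07). The 5 fell to 2 with thinning before membership was called, to 1 with DESeq2, without the block or without cells that held a marker UMI of other cell types, and to 3 without library 5, where 1 gene was lower. The PD-1 gene Pdcd1 was 1.065-fold higher in the fit (adjusted p = 0.0133), at 416, 668, 528, 482 and 617 CPM against 390, 612, 503, 465 and 575 CPM. Lag3, Havcr2, Tigit and Ctla4 did not pass, with adjusted p values of 0.894, 0.931, 0.66 and 0.786.

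Among 11 exhaustion-linked transcription factors none was higher and 3 were lower, Eomes, Maf and Nr4a2, with a median of -0.13. The 3 rose to 5 with another draw of the matched cells or all cells unmatched. They fell to 1 with thinning before membership was called, to 2 without library 1, 2 or 5, and to 0 with DESeq2, without the block or without cells that held a marker UMI of other cell types. Tox, which programmes exhausted cells, stood at 331 against 348 CPM (adjusted p = 0.242). Of 13 genes linked with regulatory CD8 cells 2 were higher, Entpd1, the ectonucleotidase CD39, at 1.22-fold (adjusted p = 0.00235), and Tnfrsf18, the GITR gene, at 1.13-fold (adjusted p = 0.0464). The 2 fell to 1 with TMM scaling, with no low-count filter and without any 1 library, and to 0 with DESeq2, with thinning before membership was called and without the block. Ikzf2, encoding Helios, was 82.4 to 129 CPM in members and 101 to 140 CPM in the reference and did not pass (adjusted p = 0.368). Foxp3 and Il10 were too low to be tested, at 1.06 and 1.87 CPM in members and 0.927 and 1.41 CPM in the reference. The same held for all 4 Fc gamma receptor genes that were listed.

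A list of cytokine receptors and their signalling genes split. It spans more cytokines than interleukin-2 and interleukin-15. Higher were the survival gene Bcl2 (1.16-fold, adjusted p = 5.04e-13), the pro-apoptotic Bcl2l11 (adjusted p = 5.68e-07), and the feedback inhibitors Cish and Socs2 (adjusted p = 1.05e-05 and 0.00176). Of 28 genes tested in this list, the interleukin-7 and interleukin-18 receptor genes Il7r and Il18r1 were lower and the median was -0.02. The 4 higher and 2 lower became 2 and 1 with thinning before membership was called, 1 and 1 without cells that held a marker UMI of other cell types, 4 and 4 with TMM scaling and 0 and 0 without the block. The shared chain gene Il2rg was level, at 281 against 284 CPM (adjusted p = 0.904).

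None of 11 proliferation genes passed, and neither did any of 9 B cell genes. Of 30 interferon-response genes the 2 called were Ly6c2 and Ly6a, both lower and both surface markers of memory and activated cells. Of 18 immediate early and stress genes 5 were lower: Junb, Nfkbia and the heat shock genes Hspa1a, Hspa1b and Dnajb1, with a median of -0.07. The 5 became 10 with all cells unmatched, 2 with thinning before membership was called and 0 without the block or without cells that held a marker UMI of other cell types, where 1 gene was higher. Of 14 receptor-signalling genes, Cd3e and Cd3g were higher and Cd5, a brake on the receptor, was lower. Of 8 chemokine receptors 1 was higher and 2 were lower, and Ctss was the single call among 13 myeloid genes, lower. No myeloid gene was called with DESeq2, with thinning before membership was called, without the block or without library 1, 2, 4 or 5. The same held without cells that held a marker UMI of other cell types, and 4 were lower with all cells unmatched. The lower chemokine receptors became 4 and the higher receptor-signalling genes became 4 with another draw of the matched cells, and without the block no gene of either list was called.

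Further genes from the top and bottom of the ranking have varied roles. Higher were Glp1r, the receptor for glucagon-like peptide-1, at 58.6 to 71.8 CPM against 36.8 to 48.9 CPM, Cd7, a surface glycoprotein of T and natural killer cells, at 264 to 414 against 166 to 324 CPM, Metrnl, a secreted meteorin-like protein, and AA467197. Lower were Ly6c2, at 28.8 to 49.7 against 69.0 to 101 CPM, Emb, the adhesion molecule embigin, at 96.1 to 118 against 131 to 157 CPM, Gramd3, Il18r1, Ly6a, Cd28 and Cd5. Among 29 tested genes on a list taken from the text that accompanies the data, 10 were higher and 5 lower, within log2 changes of -0.62 to 0.61. That list was drawn up on these samples and is no independent evidence.

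The count of called genes depended on how members were set apart. With cells thinned before membership was called, 50 genes passed and 13 of the 20 named ones. This setting had 336 to 666 members per library, of 1000 UMIs each, against 1153 to 1492 deeper members in the main fit. Its reference class also held cells that lost their Fgl2 UMIs by thinning. The part of fewer counts in the lost calls was not tested. With DESeq2 80 genes passed and 12 of the named ones, and without the library as a block 8 genes. Dropping every cell with a marker UMI of other cell types left 36 called genes and 8 of the named ones, from 92 to 232 members per library. Dropping only cells with a defining marker UMI of other cell types, chosen after seeing the data, left 234 called genes and 20 of the named ones, from 909 to 1178 members per library.

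The level of Fgl2 was tracked among Il2rb-positive CD8 cells thinned to 1000 UMIs. Gzmb was 734 ± 74.9 CPM in cells without an Fgl2 UMI, 962 ± 148 with 1, 1165 ± 243 with 2 and 1716 ± 809 with 3 or more (SD, n = 5 libraries). Itgae followed the same order, from 204 ± 26.5 to 232 ± 30.6, 287 ± 56.2 and 351 ± 70.5 CPM. Il7r was 200 ± 58.9 CPM without Fgl2 and 122 ± 54.4 CPM with 2 UMIs. Not all named genes were ordered this way. Itga1 was 382, 430, 545 and 460 CPM over the 4 levels, Cd7 280, 356, 426 and 390 CPM, Klf2 62.1, 43.2, 67.3 and 30.7 CPM, and Ly6c2 40.5, 37.0, 15.2 and 24.9 CPM. Pdcd1 stayed between 565 and 580 CPM at all 4 levels. Il2rb lay between 1455 and 1521 CPM, but every one of these cells was required to hold an Il2rb UMI after thinning. Its level was therefore partly set by that choice. The top level held 145 cells, 14 in the smallest library, and its spread was wide.

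**Figure D3:**
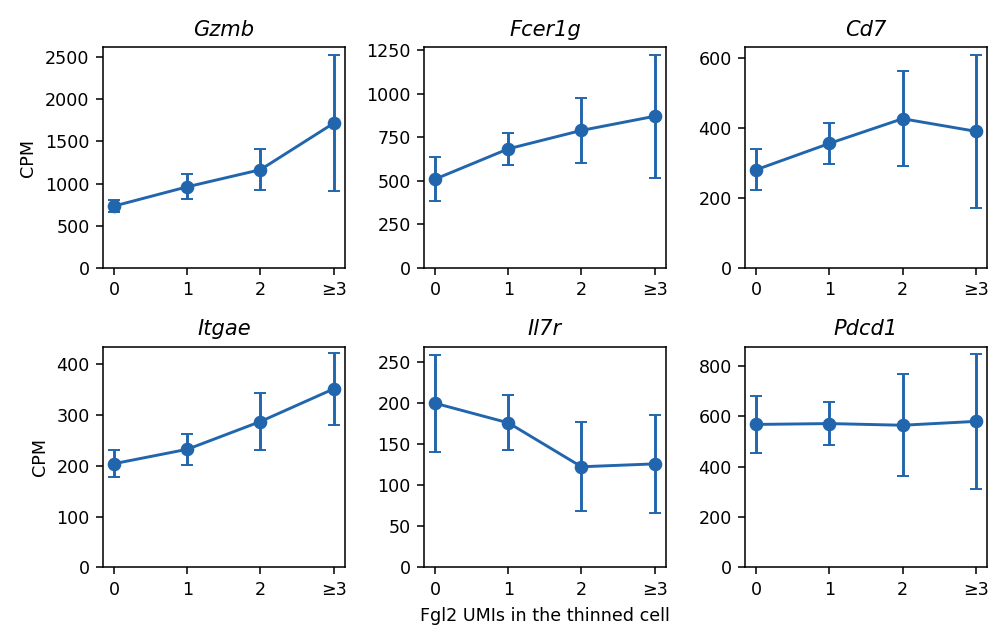
Mean CPM of 6 genes in Il2rb-positive CD8 cells of the 3-week graft by the number of Fgl2 UMIs left after thinning to 1000 UMIs, with bars for the SD over 5 libraries. Gzmb and Itgae step upward over the 4 levels, Il7r is lower with 2 Fgl2 UMIs than with none, and Pdcd1 is flat.

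Double-positive cells were found both with and without a UMI of each other marker, in shares that differed for some markers and little for others. Among thinned CD8 cells with an Fcer1g UMI 20.1% ± 1.95 were double-positive, against 12.3% ± 1.47 without, and with a Gzmb UMI 15.5% ± 1.71 against 12.7% ± 1.63, both higher in 5 of 5 libraries. The share was 10.2% ± 1.98 among Il7r-positive and 9.40% ± 3.54 among Ly6c2-positive cells, lower than in cells without these UMIs in 5 of 5 libraries. These 4 genes were named for 1 direction in 5 of 5 of the same libraries. Their shares restate the first comparison, and the directions were largely set by that choice. With an Ikzf2 UMI the share was 12.6% ± 1.08 against 13.8% ± 1.71 without, higher in 1 of 5 libraries. Residency genes differed little: 14.08% with an Itgae UMI against 13.65% without, higher in 2 of 5 libraries, and 14.27% against 13.25% for Cxcr6, higher in 3 of 5. Tox gave 13.32% against 13.86%, higher in 2 of 5.

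**Figure D4:**
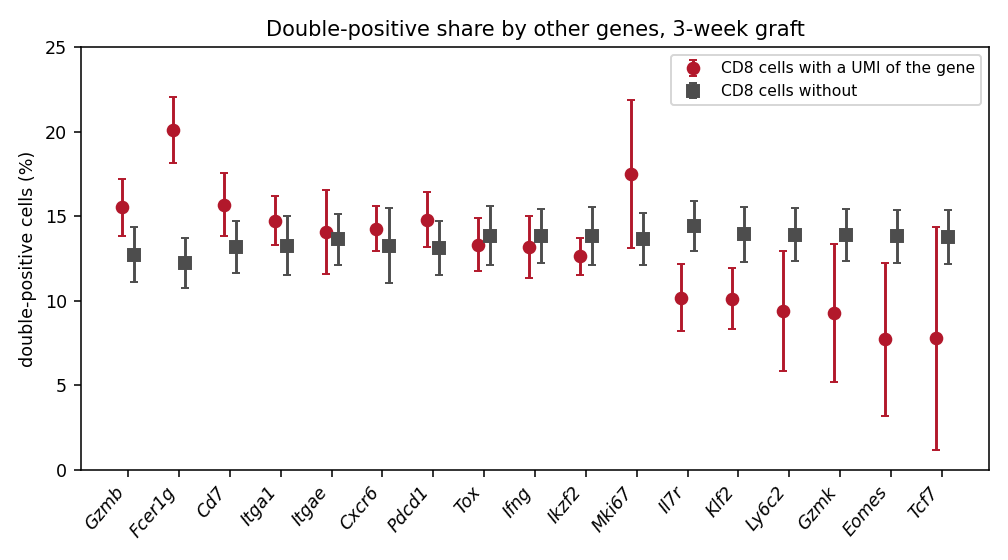
Percentage of double-positive cells among CD8 cells with (red) and without (grey) a UMI of each gene on the horizontal axis, in the 3-week graft after thinning to 1000 UMIs, as mean and SD over 5 libraries. The share is highest with Fcer1g, at 20.1%, and lowest with Eomes and Tcf7, which few cells carried.

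To separate the 2 markers, members were set against CD8 cells that had Il2rb but no Fgl2. Here 143 genes were higher (1.5% of 9557) and 135 lower (1.41%), or 109 and 182 with TMM scaling. The comparison shares its members with the first, and their values are given side by side only. The 10 named higher genes were all called again, Gzma at 1.26 ± 0.06, Fcer1g at 0.68 ± 0.03 and Gzmb at 0.66 ± 0.02 on the log2 scale (adjusted p = 1.02e-32, 3.27e-39 and 5.38e-44). Pdcd1, in contrast, did not pass, with a log2 difference of -0.0017 ± 0.02 (adjusted p = 0.99). Tox, Nr4a2, Ikzf2 and Icos were lower, Ikzf2 at -0.23 ± 0.05 (adjusted p = 0.00139).

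Against cells with Fgl2 but no Il2rb, a different set stood out: 115 genes were higher (1.42% of 8098) and 71 lower (0.877%). Pdcd1 was 426, 685, 560, 485 and 643 CPM in members and 280, 546, 416, 384 and 457 CPM in Fgl2-only cells, higher in each library and by 1.35-fold in the fit. Tnfrsf9, the costimulatory receptor 4-1BB, was higher at a log2 change of 0.89 ± 0.13, Nr4a2, an orphan nuclear receptor induced by antigen, at 0.42 ± 0.04, Stat3 at 0.43 ± 0.06 and Lag3 at 0.32 ± 0.08 (adjusted p = 0.00278 for Lag3). Fcer1g was again higher, at 0.80 ± 0.04 (adjusted p = 3.54e-49). Of 12 genes linked with regulatory CD8 cells, Tnfrsf9 and Lag3 among them, 4 were higher and none lower, with a median of 0.27. All 12 lay above 0, beside 4270 of all 8098 genes. Against cells with Il2rb but no Fgl2, 0 of 12 were higher and 2 lower, with a median of -0.07.

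Of 18 cytotoxic and effector genes 3 were higher and 3 lower against these cells. Gzma was lower in double-positive than in Fgl2-only cells, at -0.66 ± 0.06 (adjusted p = 6.34e-23) and in 4 of 5 libraries, with library 3 at 363 against 972 CPM. Gzmb was at -0.20 ± 0.03, lower in 4 of 5 libraries, and Itgae at -0.27 ± 0.05, lower in 5 of 5, while Itga1 did not pass (adjusted p = 0.353). Of 26 interferon-response genes 8 were lower and none higher, Ly6a at -0.84 ± 0.07 (adjusted p = 3.57e-23) and Ifit1, an antiviral effector, at -0.96 ± 0.22 (adjusted p = 0.00156). Fcer1g, Glp1r, Cd200r1 and Metrnl were higher, and Ly6c2, Klf2, Il7r and Cd5 lower, in all 3 comparisons at 3 weeks. Both classes here were sums of 463 to 684 cells per library.

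**Figure D5:**
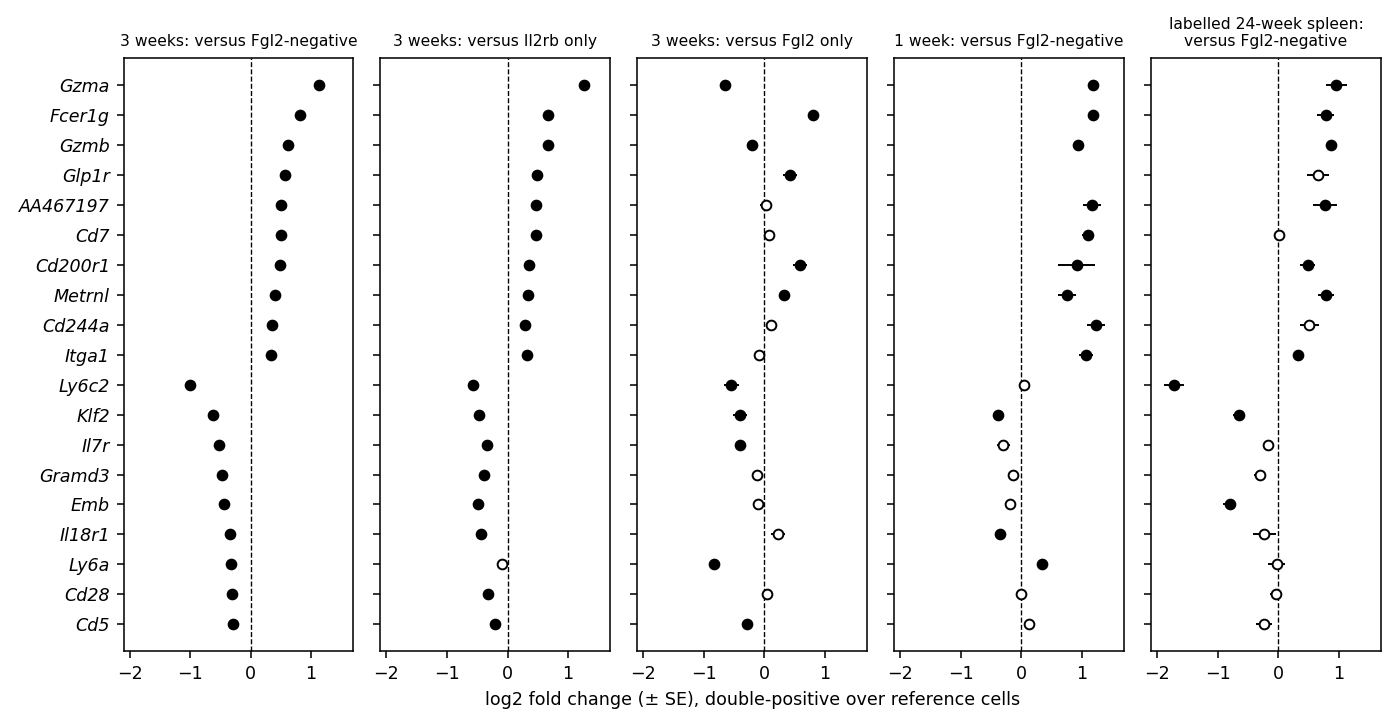
log2 fold change ± SE of 19 of the 20 named genes in double-positive cells against 5 reference groups, filled where the edgeR adjusted p was under 0.05 and open where it was not. Gzma and Gzmb lie right of 0 in all panels except against Fgl2-only cells, where they lie left, and most of the lower genes lie nearer to 0 at 1 week than at 3 weeks.

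The same contrast was drawn in libraries that the rule did not use. At 1 week, 1675 double-positive cells were found in 3 libraries, and after matching 436 genes were higher (4.71% of 9266) and 229 lower (2.47%), or 356 and 357 with TMM scaling. Gzmb was 1248, 1428 and 1124 CPM in double-positive cells and 663, 591 and 725 CPM in the reference, with no overlap (log2 change 0.94 ± 0.05, adjusted p = 5.25e-21). Of the 10 genes named as higher, 9 could be tested and all 9 were higher. Of the 10 named as lower, 7 lay below 0 and 2 passed, Klf2 and Il18r1, the latter not in library 3, and 1, Ly6a, was higher. Over all 9266 genes tested, 5258 lay above 0. Of all 137 genes called lower at 3 weeks, 136 were tested at 1 week, with 60 called lower and 6 called higher. Of the 164 called higher at 3 weeks, 152 were tested, with 95 called higher and 0 called lower.

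At 1 week, 8 of 13 residency genes were higher, Itgae at 87.3, 85.6 and 38.7 CPM against 31.7, 26.8 and 25.2 CPM, 2.48-fold (adjusted p = 6.84e-12). Of 15 regulatory CD8 genes 10 were higher, among them Foxp3, at 38.9, 21.1 and 26.4 CPM against 19.2, 9.35 and 12.6 CPM (adjusted p = 2.68e-06). Beside it, Cd4 was higher too, at 37.4, 15.97 and 18.7 CPM against 15.8, 8.74 and 7.74 CPM, and its part in the Foxp3 result was not tested. Double-positive cells were also deeper here than the Fgl2-negative cells before matching, at medians of 3620 to 5695 against 1953 to 3460 UMIs. The counts rested on single libraries: they fell from 665 called genes to 21 without library 1, to 168 without library 2 and to 402 without library 3.

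The difference between the time points was tested in 1 fit. The effect at 3 weeks was above that at 1 week for 73 genes (0.71% of 10285) and below it for 247 (2.4%). Of the 20 named genes 11 differed, all 11 with the lower value at 3 weeks. Of these, 6 were named as higher, with a smaller effect at 3 weeks, and 5 as lower, with a more negative one. The 20 were named on the 3-week sums that this fit reuses, which favours differences below 0 for genes named as lower. The effect of Itga1 was smaller by 0.74 ± 0.11 on the log2 scale, and that of Gzmb by 0.33 ± 0.06 (adjusted p = 1.47e-06 and 4.79e-05). Ly6c2 was level between the classes at 1 week, at 218 to 230 against 178 to 241 CPM, and its effect was 1.04 ± 0.10 lower at 3 weeks (adjusted p = 4.31e-13). Gzma did not differ, at 1.14 and 1.18 (adjusted p = 0.991). Beyond the 20, the S1pr1 effect was -1.60 at 3 weeks and -0.03 at 1 week (adjusted p = 8.33e-07). Gzmk stood at -0.67 and 0.30, and Maf at -0.58 and 1.07 (adjusted p = 1.43e-05 and 1.17e-11). Tcf7 differed the other way, at -0.54 and -1.41 (adjusted p = 0.00584), while Eomes, Id3 and Slamf6 did not differ. Leaving out 1-week library 1 or 2 reduced the 320 differing genes to 163 or 188.

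In the matrix labelled 24-week recipient spleen, 1238 double-positive cells gave 84 higher (1.12% of 7518) and 63 lower genes (0.838%), or 49 and 104 with TMM scaling. Gzmb was 701, 716 and 756 CPM against 423, 317 and 429 CPM (adjusted p = 1.79e-09), and Ly6c2 was 24.1, 32.4 and 26.4 CPM against 69.3, 86.4 and 116 CPM (adjusted p = 1.6e-07), both without overlap. Of the 10 named higher genes 10 lay above 0 and 7 passed. Of the 10 lower ones 9 lay below 0 and 3 passed, Ly6c2, Klf2 and Emb. Over all 7518 genes tested, 4629 lay above 0. Without library 2 only 1 gene was called, and without library 3 only 18.

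In the rejecting graft 98 and 87 double-positive cells were matched in its 2 libraries, and no test was made. Gzmb gave 380 UMIs against 242 in library 1 and 712 against 694 in library 2. Gzma went the other way, with 18 against 50 and 91 against 116 UMIs. Of the 10 named higher genes 6 had more UMIs in double-positive cells in both libraries, and of the 10 lower ones 4 had fewer. The share of all genes with 1 direction in both libraries was not counted, so these counts have no background to be read against. Some rested on few UMIs: Glp1r gave 10 against 7 and 1 against 0, and Klf2 4 against 5 and 0 against 4. Ly6c2 had more UMIs in double-positive cells in both, 29 against 6 and 124 against 102.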

How the data were processed

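Single-cell 3' RNA-seq was measured in sorted CD45+ cells. The authors mapped reads with Cell Ranger to mm10 (the submitters' processing notes), filtered cells by UMIs, genes and mitochondrial share, and deposited raw UMI counts per gene and cell. Versions and any doublet step are not given in the sources used here, and no doublet caller was run. Library totals in the 3-week graft were 9756240 to 11205319 UMIs.

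Members and gene lists were chosen with earlier results of these data known. Members and reference cells were matched 1 to 1 within library tag in bins of 0.1 log2 UMIs, and UMIs were summed per library and class. edgeR 4.0.16 (quasi-likelihood, library as block, plain totals, filterByExpr, Benjamini-Hochberg, threshold 0.05) was fitted over all genes, after tests on simulated data. The fit was blocked by library, with libraries read as mice from the tags. Each SE is the absolute log2 change divided by the square root of the F statistic. Dispersion was shared across genes, so SEs and p-values can be smaller than a gene's own spread between libraries allows, as for Gzma. Both classes came from the same libraries, and their deviations from the class means correlated at 0.444 to 0.841 within library and at most 0.147 between libraries (3-week graft). Named genes were the 10 highest and 10 lowest log2 changes of the first comparison with adjusted p under 0.05, at least 50 CPM and 1 direction in 5 of 5 libraries. Rule, mitochondrial, ribosomal, immunoglobulin, T cell receptor, Gm and Rik genes were left out. List members and genes the study names were added. Of these, 1 of the 20 and 1 list member are counted but not reported by name here. Shares used cells thinned to 1000 UMIs. DESeq2 1.42.0, TMM, no filter, no block, no matching, other memberships and leaving out each library were alternatives. Gene positions are from GENCODE annotation of GRCm38, which matched 98.3% of symbols.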

Additional observations from a re-analysis of the deposited data

Results flagged for a closer look

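The effect of being double-positive differed between the 3-week and 1-week accepted grafts, by the interaction term of the edgeR fit, for 11 named genes. For genes higher in double-positive cells at 3 weeks, the effect at 3 weeks minus that at 1 week was -0.38 for Fcer1g, -0.33 for Gzmb, -0.66 for AA467197, -0.62 for Cd7, -0.89 for Cd244a and -0.74 for Itga1 on the log2 scale. For those lower at 3 weeks it was -1.04 for Ly6c2, -0.34 for Gramd3, -0.66 for Ly6a, -0.30 for Cd28 and -0.43 for Cd5. Naming these genes on their 3-week effects favours values below 0 for those named as lower. Matched double-positive cells were deeper at 1 week, at library medians of 3609 to 5570 UMIs, than at 3 weeks, at 2072 to 3027 UMIs, and the part of this in the differences was not tested.

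In 3-week recipient spleen 1 library stood apart from the other 4 with a double-positive share of 0.246% of thinned CD8 cells, which is 1 cell. It was the single one of 44 groups of 5 libraries examined in this way, where chance alone would single out about 1 in 20.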

How the results depend on the processing

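The first comparison gave 301 called genes at 3 weeks, 231 to 264 when a library was left out, 80 with DESeq2 and 8 with no replicate block. The count was 50 with cells thinned before membership was called, from 336 to 666 members per library. It was 36 when cells with any marker UMI of other cells were dropped, which left 92 to 232 members per library. It gave 234 when only cells with a defining marker UMI of other cells were dropped and 317 with a CD3 UMI and no natural killer marker UMI required, both chosen after seeing the data. No named gene changed direction under any of its alternatives, and in the leave-one-out fits 19 of 20 kept their call without library 2 or 3 and 20 of 20 without library 1, 4 or 5. Against Il2rb-only cells the count was 278, 164 to 225 without a library (173 without library 2, 164 without library 4), 53 with DESeq2 and 0 with edgeR without the replicate block, where 392 genes had an unadjusted p under 0.05. Against Fgl2-only cells it was 186, then 123 to 167 without a library (123 without library 4), 36 with DESeq2, 11 with no replicate block and 367 with all cells unmatched. At 1 week it was 665, then 21 to 402 without a library, 145 with DESeq2, 232 with no low-count filter, 1 with no replicate block and 1361 unmatched. In the matrix labelled 24-week spleen it was 147, then 1 to 104 without a library, 63 with DESeq2, 45 with no low-count filter and 8 with no replicate block. For the difference between time points it was 320, then 163 to 388 without a library and 681 unmatched. The cause of these changes was not tested.

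The double-positive share moved with depth: 37.7% with no thinning, 13.7% at 1000 UMIs and 4.65% at 500 UMIs in the 3-week graft, 13.4%, 2.29% and 0.676% in the 1-week graft, and 28.5%, 7.33% and 2.27% in the matrix labelled 24-week spleen. Over all cells of the matrix it was 12.03% at 3 weeks and 5.74% in the matrix labelled 24-week spleen. An absent UMI is therefore not an absent transcript, and the Fgl2-negative class holds cells in which Fgl2 was missed.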
